A study of Mus musculus with 16 samples.

Results

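Lungs of the mouse line titled BALB-RAG were compared with lungs of BALB/c mice after mock exposure to saline. The comparison took 8 of the 16 Affymetrix arrays of a study of experimental asthma, 4 titled BALB-RAG_PBS and 4 titled BALB/c_PBS, chosen by title. BALB/c is an inbred albino strain widely used for allergic airway disease. Both groups received phosphate-buffered saline (PBS) where the other 8 mouse lung samples received ovalbumin (OVA), and whole lungs were taken on day 22, 1 day after the last exposure. The titles give the line and the exposure, and the sources used here do not state the age, the sex or the Rag allele. Whether the replicates were different mice is not said either, and the p-values cover variation among the 4 arrays of a group, some or all of which may be technical.

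The RAG1 and RAG2 proteins cut DNA at antigen receptor genes and so start V(D)J recombination, the step that builds T cell receptors and antibodies. Mice that lack either protein have no mature T or B cells but keep natural killer (NK) cells, innate lymphoid cells and myeloid cells. A line comparison without allergen shows the baseline on which an allergen response is measured. Whole lung RNA mixes all cell types, so fewer cells of a type and less RNA per cell cannot be told apart in any result below.

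The labels were checked against transcripts first. The lung markers Sftpc, a surfactant protein, and Cldn5, an endothelial junction protein, were high on all 8 arrays, with Sftpc at log2 14.00 to 14.31 on the BALB-RAG arrays and 14.39 to 14.55 on the BALB/c arrays. Rag2 read 4.2, 2.92, 3.05 and 2.90 on BALB-RAG replicates 1 to 4 and 2.84, 2.93, 3.28 and 3.14 on BALB/c replicates 1 to 4. Log2 4 was taken as background throughout, so Rag2 checked nothing, and Rag1 had no value under the labels used here. T cell transcripts went against the title: Cd3d, a signalling chain of the T cell receptor, read 5.93, 5.51, 4.88 and 5.35 on BALB-RAG replicates 1 to 4 and 6.13, 6.15, 4.98 and 5.64 on BALB/c replicates 1 to 4. Igha, the heavy chain of secreted IgA, was higher on the BALB-RAG arrays than on any BALB/c array. Groups were kept as titled, and "BALB-RAG arrays" means arrays labelled so.

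Differences are given as log2 of BALB-RAG over BALB/c ± SE (n = 4 arrays per group), from a limma fit that held a term for replicates 1-2 against replicates 3-4, with Benjamini-Hochberg adjusted p-values over all 7024 tested genes. At an adjusted p under 0.05, 418 genes differed (5.95% of those tested), 199 of them higher (2.83%) and 219 lower (3.12%) on the BALB-RAG arrays. These shares of all tested genes are the ones to set beside each list count below. The 2 groups did not overlap for 335 of the 418, against 9.62% of all tested genes (4.21% with BALB-RAG higher and 5.41% with it lower). All 418 had the same sign in replicates 1-2 and in replicates 3-4, as the plot of the replicate pairs shows. The calls came from these same arrays, so the lack of overlap and the equal signs are largely set by the selection and are no separate check. Alone, replicates 1-2 called 60 genes (0.854%) and replicates 3-4 called 27 (0.384%). The number of calls was 194 with replicate number as a block (101 higher, 93 lower, 185 of them among the 418), 146 without the pair term, 106 without BALB/c replicate 1 and 533 without BALB-RAG replicate 3. A core of 80 genes (1.14%, 39 higher and 41 lower) was called with the pair term, without it, with the block, in a fit of all 16 arrays and without each of the 8 arrays in turn, and is called the core below. Of the 128 called genes considered by name, 73 lost the call without at least 1 array, 46 of them most clearly without BALB/c replicate 1, and "up to" below gives the highest adjusted p with 1 array left out. Each named gene whose call ended with the block also lost it without at least 1 array. No gene had a line difference that differed between the pairs of replicates (limma interaction, lowest adjusted p 0.299), with 423 genes at an unadjusted p under 0.05. The number at an adjusted p under 0.05 rose from 0 to 2 without BALB-RAG replicate 1.

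**Figure D1:**
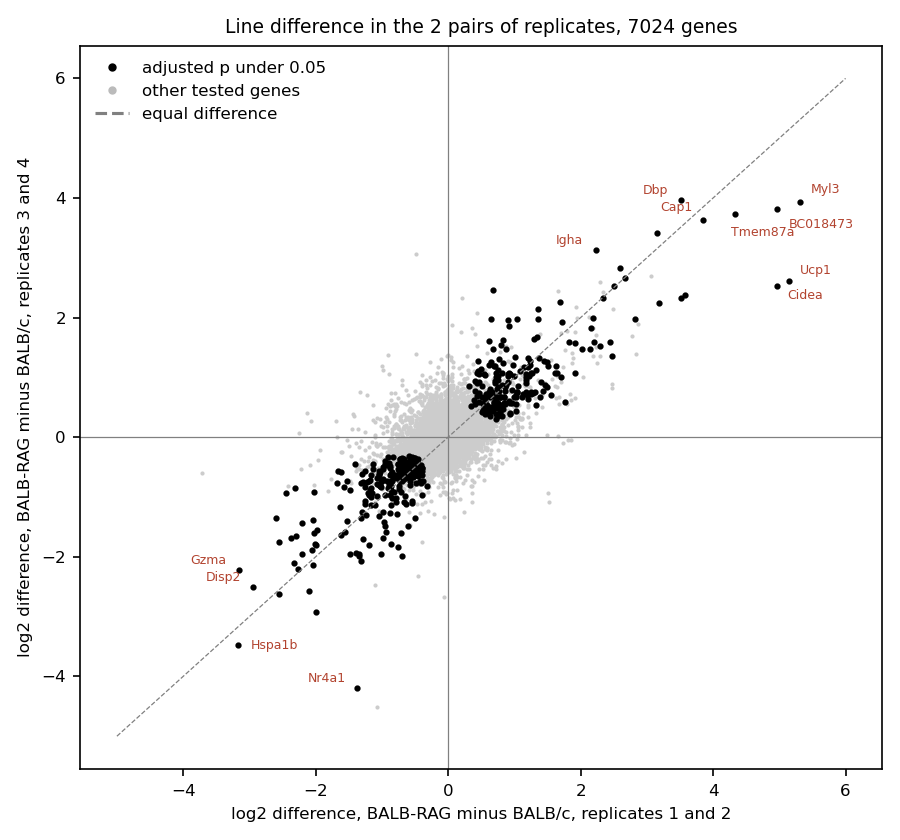
Line difference (log2 of BALB-RAG over BALB/c after PBS) in replicates 1 and 2 on the x axis and in replicates 3 and 4 on the y axis, 1 point per tested gene, with called genes in black and the dashed line at equal differences. The 418 called genes lie in the lower left and upper right of the plot, with Tmem87a and Disp2 near the dashed line and Ucp1 and Nr4a1 away from it.

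Some of the largest steps between the lines lay in genes outside the lists used here, described first. Those of clock, heat shock, fat and heart muscle genes follow with their lists. Tmem87a, a Golgi membrane protein, read 8.13, 7.88, 7.72 and 8.12 on BALB-RAG replicates 1 to 4 and 3.73, 3.63, 4.58 and 3.78 on BALB/c replicates 1 to 4. It was high on every BALB-RAG array and under background on 3 of the 4 BALB/c arrays (4.04 ± 0.21, limma adjusted p = 0.000246, with 3.82 where values under 4 were set to 4). On the OVA arrays the same difference was 4.05 ± 0.23, and the 2 differences did not differ by the test (adjusted p = 0.981). BC018473 read 6.99, 7.37, 5.73 and 6.58 on the BALB-RAG arrays and 2.18, 2.28, 2.42 and 2.26 on the BALB/c arrays. All 4 BALB/c arrays were under background, so it was at least 6.36-fold higher on the BALB-RAG arrays (4.39 ± 0.27, adjusted p = 0.000333). Its other probe set was under background on all 8 arrays. The difference of BC018473 was larger after OVA, by 1.39 ± 0.45 (adjusted p = 0.0454, and 0.0703 without BALB-RAG OVA replicate 2).

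Cap1, which binds actin monomers and adenylyl cyclase, read 10.32, 9.45, 9.37 and 10.43 on the BALB-RAG arrays and 5.70, 6.37, 7.05 and 5.47 on the BALB/c arrays. It was 13.4-fold higher (3.75 ± 0.39, adjusted p = 0.0023), and its other probe set gave 3.69. Pam, an enzyme that amidates peptide hormones, was 6.59-fold higher, with 10.50, 10.20, 9.73 and 10.20 on the BALB-RAG arrays and 7.12, 7.20, 7.79 and 7.63 on the BALB/c arrays (2.72 ± 0.21, adjusted p = 0.000374). In the opposite direction Disp2, a relative of the Hedgehog release protein Dispatched, read 3.41, 4.13, 3.79 and 3.42 on the BALB-RAG arrays and 6.63, 6.80, 5.99 and 6.22 on the BALB/c arrays. It was lower (−2.72 ± 0.19, adjusted p = 0.000347) with 3 of the BALB-RAG arrays under background, and −2.38 where values under 4 were set to 4. After OVA the differences of Cap1, Pam and Disp2 were 3.34 ± 0.49, 2.77 ± 0.29 and −2.67 ± 0.27, and none differed from those after PBS by the test (adjusted p = 0.74, 0.944 and 0.941). Rab6b, a small GTPase of Golgi transport, was 4.45-fold lower (−2.15 ± 0.27, adjusted p = 0.00544), with 4.44, 4.81, 6.69 and 5.51 on the BALB-RAG arrays and 7.14, 7.24, 7.95 and 7.74 on the BALB/c arrays. Tmem45b, a transmembrane protein, was higher (2.92 ± 0.55, and 2.60 where values under 4 were set to 4, since 2 BALB/c arrays were under background). It passed the test (adjusted p = 0.0228), but its adjusted p was 0.054 with the block and up to 0.0802 without BALB/c replicate 1.

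In all, 149 genes separated the lines on all 16 arrays in 1 direction (2.12% of those tested), and 95 of them were among the 418. By chromosome the share was highest on chromosome 2, which carries Rag1 and Rag2, with 21 of 534 tested genes (3.93%), followed by chromosome 19 (3.20%), chromosome 13 (3.15%) and chromosome 11 (2.88%). Counted in genes from Rag1, Gpsm1 of these 21 lay at −1467 and Atp9a at 1454. By share called after PBS, chromosome 2 (6.37%) was near all tested genes (5.95%), and chromosome 15 was highest (8.93%). Linkage to Rag1 was not tested. Among the 60 genes on each side of Rag1 in RefSeq order, 14 were tested and 1 was called (7.14%, beside 5.95% of all tested genes). It was Ehf, an epithelial transcription factor (−0.62 ± 0.12, adjusted p = 0.0267, 0.054 with the block). Farther along chromosome 2, 288 genes beyond Rag1, the run of 141 genes that starts at Disp2 and ends at Gatm held 33 tested genes, of which 7 were called (21.2%, beside 6.37% of the tested genes of chromosome 2). In the stretch between Rag1 and Disp2, 1 of 35 tested genes was called. Of the 33 tested genes of the run, 7 separated the lines on all 16 arrays, beside 2.12% of all tested genes. These were 7 of the 21 on chromosome 2, and they included Zfp106, which was not called. The limits of this run were set after the values were seen, so its shares are descriptions. Its called members were Tmem87a, Disp2, Golm2, Gatm, Snap23, Mapkbp1 and Tubgcp4, of which 3 were higher and 4 lower.

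Within that run Golm2, a Golgi membrane protein, read 8.31, 8.43, 8.53 and 8.56 on the BALB-RAG arrays and 10.03, 9.41, 10.49 and 10.51 on the BALB/c arrays (−1.65 ± 0.18, adjusted p = 0.00239). Gatm, which makes the creatine precursor guanidinoacetate, read 5.03, 5.30, 4.90 and 5.42 on the BALB-RAG arrays and 3.70, 3.62, 3.90 and 4.06 on the BALB/c arrays (1.35 ± 0.15, adjusted p = 0.00306). Tmem87a, Disp2, Golm2 and Gatm were core genes. Snap23, a membrane fusion protein, was lower (−1.04 ± 0.20, adjusted p = 0.0259, up to 0.0812 without BALB/c replicate 2). Mapkbp1, a scaffold of MAP kinase signalling (0.56 ± 0.12), and Tubgcp4, a component of the gamma-tubulin ring (−0.54 ± 0.11), lost their calls with the block (adjusted p = 0.0818 and 0.0618).

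B cell genes were lower on the BALB-RAG arrays. Of the 19 tested genes of a B cell list, 8 were lower and 1 was higher (47.4%, beside 5.95% of all tested genes). The median difference was −0.55 beside −0.02 over all tested genes. The mean level of the list was 4.94, 4.85, 5.16 and 4.78 on the BALB-RAG arrays and 5.75, 5.69, 5.55 and 5.59 on the BALB/c arrays, and the groups did not overlap. Ms4a1, the B cell surface protein CD20, read 4.36, 4.77, 6.17 and 5.23 on BALB-RAG replicates 1 to 4 and 7.0, 6.87, 7.28 and 7.48 on BALB/c replicates 1 to 4. It was 4.08-fold lower (−2.03 ± 0.24, adjusted p = 0.00361) and over background on every BALB-RAG array. Cd79b, a signalling chain of the B cell receptor, read 5.81, 5.66, 5.10 and 6.00 on the BALB-RAG arrays and 7.27, 7.48, 6.68 and 6.75 on the BALB/c arrays (−1.40 ± 0.20, adjusted p = 0.00928). Both kept the call without each array and with the block, but not in the fit of all 16 arrays (adjusted p = 0.075 and 0.0802).

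Pou2af1, a coactivator of antibody genes, was lower by the same test (−1.48 ± 0.27, adjusted p = 0.0204, up to 0.0754 without BALB/c replicate 1), as was Cxcr5, the receptor that leads B cells into follicles (−0.72 ± 0.14, adjusted p = 0.0259, up to 0.0972 without BALB/c replicate 1). With the block these 4 were the B cell genes still called, while Tnfrsf13c, the receptor for the survival factor BAFF, Cd72, Cd22 and Ltb were not (adjusted p = 0.0618, 0.0686, 0.0893 and 0.0919). Tnfrsf13c was under background on all 4 BALB-RAG arrays and at least 2.02-fold lower. The exception in the list was Ebf1, a transcription factor of early B cells that stromal and fat cells also use (0.74 ± 0.16, adjusted p = 0.0357, 0.0564 with the block). The count of lower B cell genes was 2 without BALB/c replicate 1 and 11 without BALB-RAG replicate 3.

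Antibody transcripts differed among themselves. Igha went opposite to the B cell genes, and Ighm was lower like them but not called. Igk (0.05 ± 0.41) and Ighg3 (0.19 ± 0.17) overlapped between the groups and were not called. Igha read 10.79, 8.45, 9.04 and 10.72 on BALB-RAG replicates 1 to 4 and 6.92, 7.86, 6.66 and 6.83 on BALB/c replicates 1 to 4. It was 6.42-fold higher (2.68 ± 0.56, adjusted p = 0.0315), with replicates 1 and 4 at the top, but its adjusted p was 0.0575 with the block and up to 0.101 without BALB/c replicate 1. Ighm, the heavy chain of IgM, read 8.75, 7.25, 7.71 and 8.71 on the BALB-RAG arrays and 9.91, 10.15, 8.95 and 9.08 on the BALB/c arrays, where all 4 arrays were higher. The difference of Ighm was −1.41 ± 0.39 and did not pass the test (adjusted p = 0.075). Its other probe sets differed in sign, with −1.09 for 1 over background on 8 arrays and 0.69 for 1 over background on 6. Jchain, which links IgA and IgM into polymers, overlapped between the groups and was uneven in both, with 8.21, 5.88, 7.04 and 8.34 on the BALB-RAG arrays and 7.37, 7.70, 4.34 and 4.93 on the BALB/c arrays. Of the 11 tested genes of the immunoglobulin and plasma cell list, Igha was the 1 higher and Pou2af1 the 1 lower. These were 18.2% of the list, beside 5.95% of all tested genes, and the list median was −0.01.

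T cell genes showed no common direction. Of 13 tested T cell genes 1 was higher and 2 were lower (23.1%, beside 5.95% of all tested genes). The median was 0.02, and no member was still called with the block. The mean level of the list was 4.96, 4.91, 4.73 and 4.78 on the BALB-RAG arrays and 5.05, 4.90, 4.68 and 4.67 on the BALB/c arrays, and the groups overlapped. Cd3e, another chain of the receptor complex, read 4.56, 4.63, 4.46 and 4.45 on the BALB-RAG arrays and 4.58, 4.33, 3.95 and 4.43 on the BALB/c arrays (0.20 ± 0.13, adjusted p = 0.429). For Cd3d the difference was −0.31 ± 0.19 (adjusted p = 0.391). The 3 calls were Cd2, an adhesion molecule that NK cells also carry (−0.51 ± 0.10, adjusted p = 0.0259, 0.0704 with the block), Ccr7, a homing receptor shared with dendritic cells (−0.69 ± 0.15, adjusted p = 0.0362, 0.0546 with the block), and Bcl11b, a transcription factor of the T lineage (0.77 ± 0.16, adjusted p = 0.0287, 0.0749 with the block). The thymus marker Ptcra was under background on all 8 arrays. Of 3 tested genes of V(D)J recombination and DNA repair, Xrcc4, Polm and Xrcc6, none was called.

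Genes of NK cells, which develop without RAG, were lower on the BALB-RAG arrays. Of 10 tested NK and innate lymphoid genes 4 were lower and none higher (40%, beside 5.95% of all tested genes). The median was −1.19, and no member had a difference above 0. Gzma, a granzyme of killer cells, read 5.30, 6.90, 5.54 and 5.18 on BALB-RAG replicates 1 to 4 and 9.34, 9.18, 7.64 and 7.52 on BALB/c replicates 1 to 4. It was 6.44-fold lower (−2.69 ± 0.34, adjusted p = 0.00538), with BALB/c replicates 1 and 2 above replicates 3 and 4. Ctsw, a protease of NK and cytotoxic T cells, read 4.46, 3.79, 3.65 and 3.98 on the BALB-RAG arrays and 5.62, 5.14, 4.88 and 4.86 on the BALB/c arrays (−1.16 ± 0.18, adjusted p = 0.012). Gzma and Ctsw were core genes. Klrc1, an inhibitory NK receptor, was under background on all 4 BALB-RAG arrays and at least 1.76-fold lower (−1.22 ± 0.21, adjusted p = 0.0172, up to 0.0547 without BALB-RAG replicate 1). Ccl5, a chemokine of NK and T cells, was lower (−1.68 ± 0.29, adjusted p = 0.0172, 0.0514 with the block).

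The NK list was uneven across the pairs of replicates. Its mean level was 5.12, 5.36, 5.21 and 5.09 on the BALB-RAG arrays and 6.80, 6.71, 5.87 and 5.82 on the BALB/c arrays. Its median difference was −1.46 in replicates 1-2 and −0.74 in replicates 3-4. Granzyme B (Gzmb) read 3.21, 4.27, 4.18 and 3.80 on the BALB-RAG arrays and 6.26, 6.07, 5.31 and 4.31 on the BALB/c arrays (−1.62 ± 0.39, adjusted p = 0.0501). The number of lower NK genes was 2 without BALB/c replicate 2 and 6 without BALB-RAG replicate 3.

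**Figure D2:**
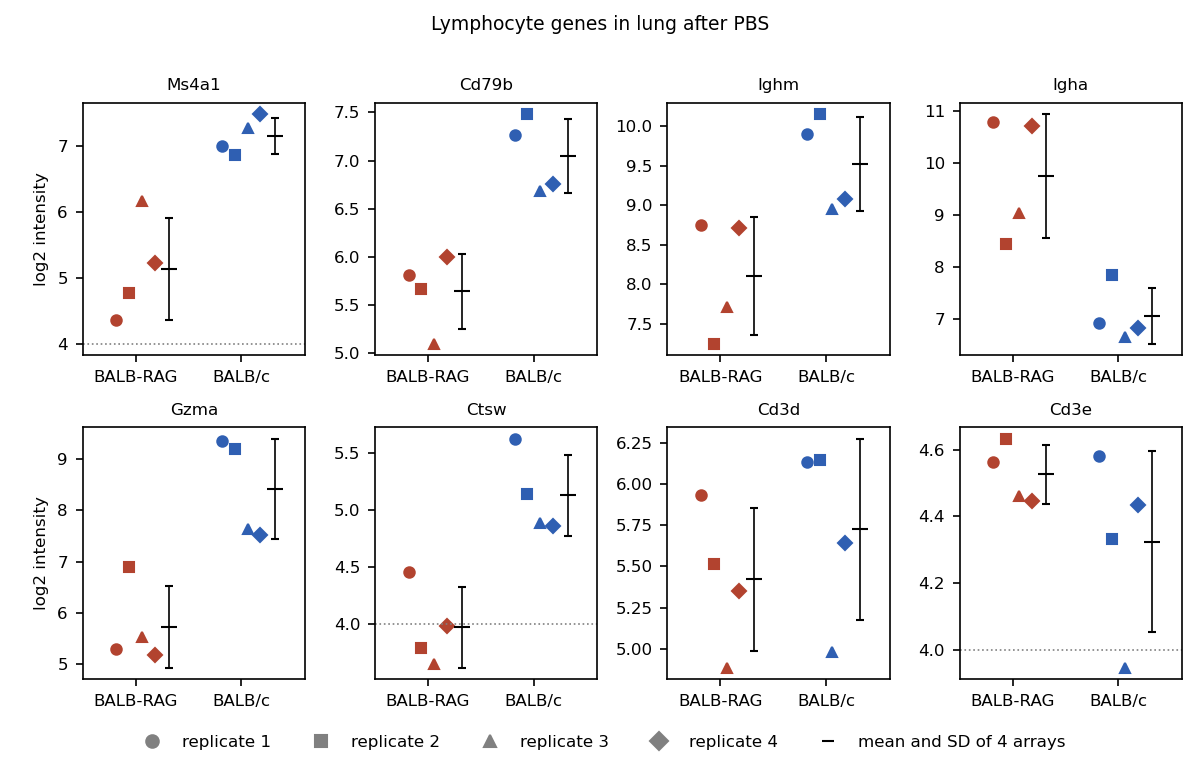
Log2 intensity of B cell (Ms4a1, Cd79b), antibody (Ighm, Igha), NK cell (Gzma, Ctsw) and T cell (Cd3d, Cd3e) genes on each BALB-RAG (red) and BALB/c (blue) array after PBS, with marker shapes for replicates 1 to 4, the mean and SD of 4 arrays at the side, and a dotted line at the background of log2 4. Ms4a1, Cd79b, Gzma and Ctsw are lower on all 4 BALB-RAG arrays, Igha is higher, and Cd3d and Cd3e overlap.

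Some genes of antigen-presenting cells were lower as well. Of 18 tested dendritic cell and MHC class II genes 6 were lower and none higher (33.3%, beside 5.95% of all tested genes). The median was −0.48, but 1 was called with the block and 1 without BALB/c replicate 1. That core gene was Cd209a, a lectin of monocyte-derived dendritic cells, which read 4.12, 4.63, 4.28 and 4.45 on BALB-RAG replicates 1 to 4 and 6.74, 6.59, 5.90 and 6.15 on BALB/c replicates 1 to 4. It was 3.94-fold lower (−1.98 ± 0.18, adjusted p = 0.00099), and the groups were far apart. The other 5 were Itgax, H2-Aa, Ccr7, Cd83 and Cst3, with adjusted p between 0.0546 and 0.104 with the block. The MHC class II chain H2-Aa, for example, read 10.91, 10.69, 10.45 and 10.37 on the BALB-RAG arrays and 11.38, 11.28, 11.07 and 10.84 on the BALB/c arrays (−0.53 ± 0.11). None of 13 MHC class I and antigen processing genes was called (median −0.28).

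Of 21 interferon response genes 4 were lower and none higher (19%, beside 5.95% of all tested genes, median −0.44). Bst2, the antiviral protein tetherin, read 7.05, 7.15, 5.93 and 5.75 on BALB-RAG replicates 1 to 4 and 8.71, 8.72, 7.67 and 7.30 on BALB/c replicates 1 to 4. Within each pair of replicates the BALB-RAG arrays lay below, and the difference was −1.62 in replicates 1-2 and −1.64 in replicates 3-4 (−1.63 ± 0.12, adjusted p = 0.000347, 0.0969 without the pair term). The other lower members were Usp18, Irgm2 and Stat2 (−0.85 ± 0.18, −0.85 ± 0.19 and −0.71 ± 0.17), of which Stat2 kept its call with the block (adjusted p = 0.0471, but up to 0.153 without BALB/c replicate 2) and Usp18 and Irgm2 did not (0.0618 and 0.085). Without BALB-RAG replicate 1 the count was 1.

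Among 19 chemokines and receptors 4 were lower (21.1%, beside 5.95% of all tested genes). The median of −0.35 was −0.72 in replicates 1-2 and −0.04 in replicates 3-4. Cxcl14, a chemokine made by epithelial and stromal cells, read 6.72, 6.35, 6.60 and 6.32 on the BALB-RAG arrays and 7.34, 7.31, 7.50 and 7.46 on the BALB/c arrays and was a core gene (−0.91 ± 0.13, adjusted p = 0.00792). The other 3 were Ccl5, Cxcr5 and Ccr7, described above. Of 10 genes of lymphoid follicles and lymphocyte homing 4 were lower (40%) and 4 had differences above 0. The median was −0.41, with −0.72 in replicates 1-2 and −0.02 in replicates 3-4, and the list levels of the groups overlapped. The lower genes included S1pr1, the receptor by which lymphocytes leave tissue and which endothelium also carries (−0.92 ± 0.15, adjusted p = 0.0137, 0.0554 without BALB/c replicate 1). Without BALB/c replicate 1 no homing gene and 1 chemokine gene was called.

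Genes of the circadian clock differed in both directions between the lines. In this clock ARNTL, with CLOCK or NPAS2, switches on genes such as Nr1d1, Nr1d2, Dbp, Hlf, Tef and Per3, and the NR1D1 and NR1D2 repressors in turn hold down Arntl, Npas2 and Nfil3. Of 21 tested clock genes 6 were higher and 5 lower, which is 52.4% of the list beside 5.95% of all tested genes, and 9 of the 11 were core genes. The 6 higher genes were called in each fit that left out an array, and 3 to 5 of the lower ones were. The sources used here do not state the hour at which lungs were taken. Promoters of 2 clock genes, Per3 and Tef, are shown for the letters they hold: 250 bases before the start site, from the RefSeq table of GRCm38.p6, with motifs in capitals. Per3 lies at chr4:151044666-151044915 on the minus strand and Tef at chr15:81802423-81802672 on the plus strand. Tef had 2 start sites, and the window with the most motif matches was chosen.
Per3: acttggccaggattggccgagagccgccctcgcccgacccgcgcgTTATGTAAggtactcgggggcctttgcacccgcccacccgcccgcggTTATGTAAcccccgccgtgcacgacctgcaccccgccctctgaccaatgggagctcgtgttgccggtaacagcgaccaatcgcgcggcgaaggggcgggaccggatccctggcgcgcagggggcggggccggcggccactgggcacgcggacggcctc
Tef: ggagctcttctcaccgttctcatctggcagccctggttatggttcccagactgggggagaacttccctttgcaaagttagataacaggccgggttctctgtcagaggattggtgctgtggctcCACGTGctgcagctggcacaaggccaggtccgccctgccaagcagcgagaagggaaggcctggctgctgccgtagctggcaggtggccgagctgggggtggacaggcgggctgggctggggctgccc
The capitals mark TTATGTAA in Per3, the D-box letters read by DBP, HLF, TEF and NFIL3, and CACGTG in Tef, the E-box letters read by ARNTL with its partners. Both strands were searched. TTATGTAA was found before 1 of the 11 called clock genes (Per3, in 2 places) and before 0.977% of 27025 genes. CACGTG was found before 2 of the 11 (Tef and Cry1) and before 6.86% of all genes. TAGGTCA, the element of NR1D1, was found before 1 (Nfil3) and before 2.55%. These matches describe letters in the window and are no measure of binding.

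Dbp, a D-box activator, read 8.50, 7.29, 7.04 and 7.93 on BALB-RAG replicates 1 to 4 and 4.36, 4.40, 3.78 and 3.26 on BALB/c replicates 1 to 4. It was higher (3.74 ± 0.30, adjusted p = 0.000454) with 2 BALB/c arrays under background, and by 3.50 where values under 4 were set to 4. Nr1d1, the repressor REV-ERB alpha, read 6.97, 6.14, 6.05 and 6.43 on the BALB-RAG arrays and was under background on all 4 BALB/c arrays, so it was at least 5.27-fold higher (3.28 ± 0.21, adjusted p = 0.000347). Its relative Nr1d2 read 10.96, 10.47, 10.96 and 11.65 on the BALB-RAG arrays and 7.92, 8.32, 8.69 and 8.27 on the BALB/c arrays (2.71 ± 0.20, adjusted p = 0.000348). Each of these groups of arrays was well separated. Hlf, another D-box activator, was 3.96-fold higher, with 6.79, 6.69, 6.14 and 6.73 on the BALB-RAG arrays and 5.01, 4.17, 4.33 and 4.90 on the BALB/c arrays (1.98 ± 0.23, adjusted p = 0.00361). Tef differed by 1.26 ± 0.15 (adjusted p = 0.0046) and Per3, a period protein, by 1.39 ± 0.21 (adjusted p = 0.0103).

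In the opposite direction, Arntl (BMAL1) read 4.56, 5.41, 5.72 and 5.40 on BALB-RAG replicates 1 to 4 and 6.89, 7.16, 7.83 and 7.55 on BALB/c replicates 1 to 4, a 4.25-fold lower level (−2.09 ± 0.19, adjusted p = 0.00116). Npas2 read 3.79, 4.83, 4.74 and 4.61 on the BALB-RAG arrays and 6.54, 6.76, 6.64 and 6.91 on the BALB/c arrays (−2.22 ± 0.22, adjusted p = 0.00144). Nfil3, a D-box repressor, was 5.06-fold lower, with 5.04, 5.57, 4.65 and 4.52 on the BALB-RAG arrays and 7.57, 7.25, 7.23 and 7.09 on the BALB/c arrays (−2.34 ± 0.17, adjusted p = 0.000347). Every BALB-RAG array lay below every BALB/c array for these 3 genes. The repressor Cry1 was lower by less (−1.08 ± 0.18, adjusted p = 0.0158, 0.0649 without BALB/c replicate 1), and Clock differed by −0.53 ± 0.09 (adjusted p = 0.0181, 0.0618 with the block). Per2, a further period gene, read 7.89, 7.65, 8.07 and 8.74 on the BALB-RAG arrays and 8.01, 7.42, 7.79 and 8.14 on the BALB/c arrays, which overlapped (0.25 ± 0.20, adjusted p = 0.539).

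After OVA the line difference of most of these genes was uneven between the pairs of replicates, with BALB/c OVA replicates 3 and 4 apart from replicates 1 and 2. Dbp read 7.52, 8.22, 7.48 and 7.11 on BALB-RAG OVA replicates 1 to 4 and 4.29, 4.34, 6.97 and 6.81 on BALB/c OVA replicates 1 to 4. Its difference was 3.56 in replicates 1-2 and 0.40 in replicates 3-4 (1.98 ± 0.58 over both), against 3.51 and 3.96 in the same pairs after PBS. For Nr1d1 the OVA values were 3.49 and −0.59 (1.45 ± 0.75), for Nr1d2 2.73 and 0.40 (1.56 ± 0.43) and for Nfil3 −2.37 and −0.55 (−1.46 ± 0.35). In replicates 1-2 these 4 differences were thus close to those after PBS. For Arntl they were −1.77 and −0.30 (−1.04 ± 0.39), and for Npas2 they had opposite signs, −1.33 and 1.13 (−0.10 ± 0.52). Hlf was even, with 2.46 and 2.50 (2.48 ± 0.18). No gene passed the test of the pairs against each other on the OVA arrays, which was chosen after the values were seen (limma, adjusted p = 0.0973 for Dbp, Nr1d1 and Nr1d2 and 0.392 for Npas2), with 634 genes at an unadjusted p under 0.05.

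Taken over both pairs, the line difference changed between the exposures for 3 of the 11 called clock genes. The change was 2.12 ± 0.66 for Npas2 (adjusted p = 0.04), with the split just given. For Cry1 it was 1.67 ± 0.27 (adjusted p = 0.000833), and the OVA difference was 0.14 in replicates 1-2 and 1.03 in replicates 3-4. For Clock it was 0.64 ± 0.19 (adjusted p = 0.0349). The other 8 did not pass (adjusted p = 0.16 to 0.471), but Arntl did without BALB-RAG OVA replicate 2 (0.0339).

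**Figure D3:**
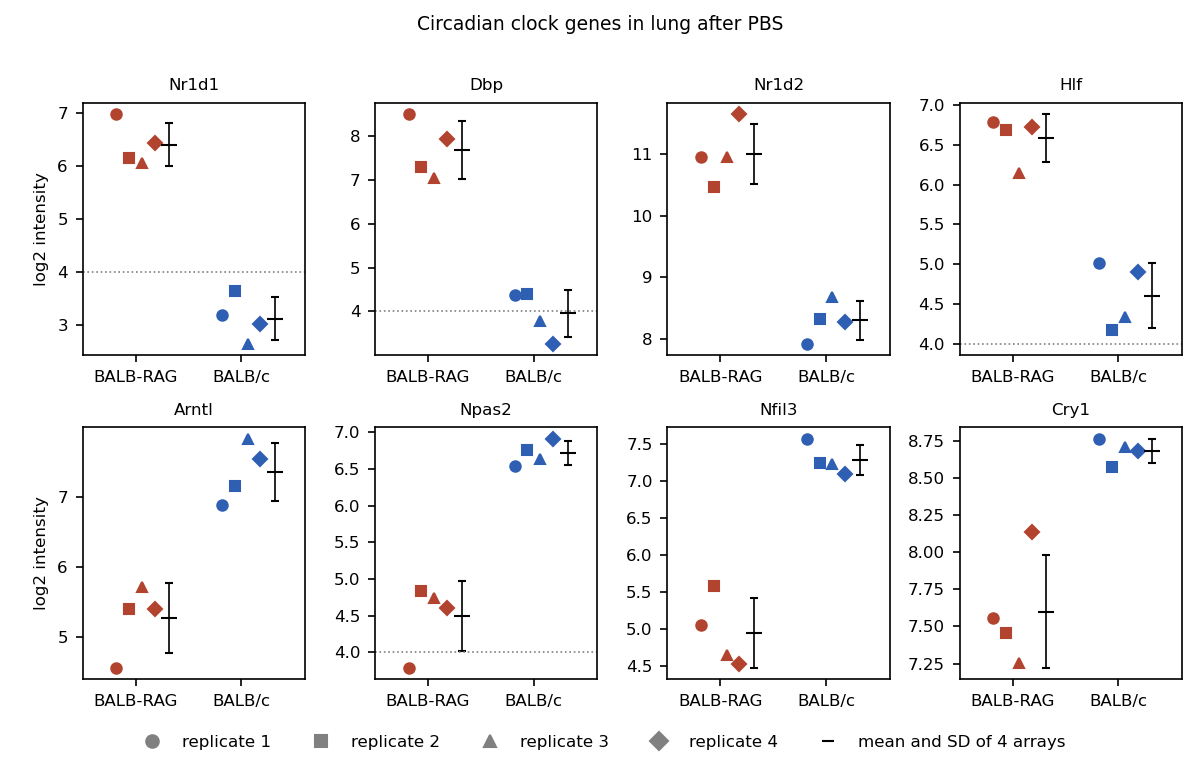
Log2 intensity of 8 circadian clock genes on each BALB-RAG (red) and BALB/c (blue) array after PBS, with marker shapes for replicates 1 to 4, the mean and SD of 4 arrays at the side, and a dotted line at the background of log2 4. Nr1d1, Dbp, Nr1d2 and Hlf in the top row are higher and Arntl, Npas2, Nfil3 and Cry1 in the bottom row are lower on all 4 BALB-RAG arrays.

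Heat shock genes were lower on the BALB-RAG arrays. Their products fold proteins, and heat or other stress raises them through the factor HSF1. Of 33 tested chaperone genes 15 were lower and none higher (45.5%, beside 5.95% of all tested genes). The median was −0.53, and 6 were core genes. The mean level of the list was 8.98, 9.07, 8.87 and 9.02 on the BALB-RAG arrays and 9.56, 9.80, 9.57 and 9.50 on the BALB/c arrays, without overlap. The count was 8 with the block, 8 without BALB/c replicate 1 and 14 without BALB-RAG replicate 4. Promoters of 3 members are shown for a pair of inverted heat shock units, again 250 bases before a start in GRCm38.p6: Hspa1b at chr17:34959239-34959488 on the minus strand, Hsph1 at chr5:149636316-149636565 on the minus strand and Dnaja1 at chr4:40722218-40722467 on the plus strand. Hsph1 had 2 start sites and Dnaja1 had 3, and the window with the most motif matches was chosen.
Hspa1b: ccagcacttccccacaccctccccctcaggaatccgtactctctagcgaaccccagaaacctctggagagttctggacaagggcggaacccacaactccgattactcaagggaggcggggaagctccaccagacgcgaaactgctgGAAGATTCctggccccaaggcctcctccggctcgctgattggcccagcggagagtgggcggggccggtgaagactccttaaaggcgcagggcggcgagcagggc
Hsph1: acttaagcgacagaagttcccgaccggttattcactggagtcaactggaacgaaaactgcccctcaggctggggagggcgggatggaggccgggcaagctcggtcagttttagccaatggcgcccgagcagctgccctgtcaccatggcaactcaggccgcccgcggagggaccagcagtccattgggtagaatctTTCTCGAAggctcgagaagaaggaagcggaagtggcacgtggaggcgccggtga
Dnaja1: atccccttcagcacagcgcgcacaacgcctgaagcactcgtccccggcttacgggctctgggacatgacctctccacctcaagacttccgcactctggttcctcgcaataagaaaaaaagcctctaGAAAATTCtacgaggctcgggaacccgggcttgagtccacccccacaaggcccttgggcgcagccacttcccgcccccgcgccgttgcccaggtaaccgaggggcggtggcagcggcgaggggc
Capitals mark GAANNTTC or TTCNNGAA, searched on both strands, where N is any base. Of the 15 lower genes 13 had a promoter in the table, and 6 of the 13 (46.2%) held a pair: Dnaja1, Fkbp4, Hspa1b, Hspb1, Hspe1 and Hsph1. Of 27025 genes 14.5% held one. This too describes letters only.

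Hspa1b, the inducible chaperone HSP70, read 7.79, 8.63, 8.74 and 7.96 on BALB-RAG replicates 1 to 4 and 11.17, 11.60, 11.99 and 11.68 on BALB/c replicates 1 to 4. It had the largest fall of the 33 (−3.33 ± 0.24, adjusted p = 0.000347), and its other probe set gave −3.62. Probes for Hspa1b may also read its near-identical copy Hspa1a, so the split between the copies is uncertain. Hsph1, which recycles HSP70, read 8.13, 8.54, 9.08 and 8.69 on the BALB-RAG arrays and 10.31, 10.87, 11.13 and 11.07 on the BALB/c arrays, a 4.70-fold lower level (−2.23 ± 0.17, adjusted p = 0.000347). Dnaja1, an HSP40 cochaperone, was tight within both groups, with 10.17, 10.30, 10.16 and 10.30 on the BALB-RAG arrays and 11.49, 11.57, 11.48 and 11.48 on the BALB/c arrays (−1.27 ± 0.10, adjusted p = 0.00037). The chaperone Hsp90aa1 differed by −1.03 ± 0.12 (adjusted p = 0.00416), Hspa4l by −1.19 ± 0.14 (adjusted p = 0.00361) and the cochaperone Stip1 by −1.06 ± 0.17 (adjusted p = 0.013). Dnajb1 was lower too (−1.26 ± 0.19, adjusted p = 0.0103), though not without the pair term (0.0515). Hspa5, the main chaperone of the endoplasmic reticulum, was lower (−0.64 ± 0.11, adjusted p = 0.0197) but not with the block (0.0575). The Hspa1b difference after OVA was −2.38 ± 0.41 and did not differ from that after PBS by the test (adjusted p = 0.323).

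Immediate early genes, which respond within minutes to growth factors, stress or handling of tissue, were lower in part. Of 22 tested 7 were lower and none higher (31.8%, beside 5.95% of all tested genes), with a median of −1.0. The mean level of the list was 7.35, 7.52, 7.30 and 7.37 on the BALB-RAG arrays, a narrow range, and 8.68, 8.02, 9.05 and 8.44 on the BALB/c arrays, a wide one. Fos, a subunit of the AP-1 factor, read 8.28, 8.44, 7.86 and 8.54 on the BALB-RAG arrays and 10.66, 10.03, 12.30 and 9.93 on the BALB/c arrays (−2.45 ± 0.48, adjusted p = 0.0259, 0.0554 with the block). The nuclear receptor Nr4a1 read 7.34, 8.05, 7.36 and 7.42 on the BALB-RAG arrays and 10.06, 8.09, 12.24 and 10.94 on the BALB/c arrays. BALB/c replicate 2 was thus level with BALB-RAG replicate 2, the highest BALB-RAG array. The call of Nr4a1 (−2.79 ± 0.66, adjusted p = 0.0483) ended with the block (0.0944). The members that were core genes were Nfil3, already given as a clock gene, Maff and Btg2. Maff, a small partner of AP-1-like factors, read 5.72, 5.84, 5.69 and 5.07 on the BALB-RAG arrays and 7.91, 7.71, 7.06 and 6.90 on the BALB/c arrays (−1.82 ± 0.16, adjusted p = 0.00105). Btg2, which slows cell division, read 8.43, 8.63, 8.38 and 7.89 on the BALB-RAG arrays and 10.13, 9.72, 10.59 and 9.56 on the BALB/c arrays (−1.67 ± 0.25, adjusted p = 0.0103). Klf4 and Ier2 lost their calls with the block (adjusted p = 0.0513 and 0.0625). The count was 3 with the block, 3 without BALB/c replicate 1 and 11 without BALB/c replicate 2.

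Genes induced by glucocorticoids or fasting were lower in part. Of 20 tested 7 were lower and none higher (35%, beside 5.95% of all tested genes), with a median of −0.20. The other members were not called, and 6 of the 20 had differences above 0. Members not called included Fkbp5 (−0.12 ± 0.36), Zbtb16 (0.13 ± 0.32), Pdk4 (−0.04 ± 0.30), Sgk1 (−0.09 ± 0.18) and Klf9 (0.27 ± 0.19). Cdkn1a, the cell cycle inhibitor p21, read 7.25, 7.72, 7.20 and 7.24 on BALB-RAG replicates 1 to 4 and 9.87, 9.49, 9.11 and 9.26 on BALB/c replicates 1 to 4, a 4.24-fold lower level (−2.08 ± 0.15, adjusted p = 0.000347). Fam107a, a glucocorticoid-induced actin regulator, read 6.39, 6.87, 6.14 and 6.39 on the BALB-RAG arrays and 8.50, 8.86, 8.23 and 8.06 on the BALB/c arrays (−1.97 ± 0.15, adjusted p = 0.00037). Angptl4, an inhibitor of lipoprotein lipase, was 3.39-fold lower, with 7.07, 7.34, 6.34 and 6.79 on the BALB-RAG arrays and 8.87, 9.49, 7.84 and 8.38 on the BALB/c arrays (−1.76 ± 0.20, adjusted p = 0.00361). Foxo3, a transcription factor that insulin signalling shuts out of the nucleus, differed by −1.50 ± 0.20 (adjusted p = 0.00623). These 4 were core genes and did not overlap between the groups. Cebpd, Errfi1 and Tsc22d3, the classic glucocorticoid-induced zipper protein GILZ, lost the call with the block (adjusted p = 0.0622, 0.0676 and 0.0613). The count was 4 with the block and 4 without BALB-RAG replicate 1.

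After OVA the difference of Angptl4 had the opposite sign (1.56 ± 0.25), and the change between exposures passed the test (3.32 ± 0.47, adjusted p = 0.000339). That of Cdkn1a was −0.68 ± 0.31 after OVA (−1.17 in replicates 1-2 and −0.19 in replicates 3-4, change 1.40 ± 0.38, adjusted p = 0.0215).

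Genes of fibroblasts and extracellular matrix were higher on the BALB-RAG arrays. Of 39 tested 15 were higher and 1 was lower (41%, beside 5.95% of all tested genes). The median was 0.43, and 6 were core genes. The list level was 8.91, 9.14, 8.91 and 8.97 on the BALB-RAG arrays and 8.46, 8.49, 8.56 and 8.55 on the BALB/c arrays, without overlap. Col1a1, a chain of type I collagen, read 9.96, 10.06, 9.19 and 9.20 on BALB-RAG replicates 1 to 4 and 8.51, 8.62, 7.97 and 7.87 on BALB/c replicates 1 to 4. Within each pair of replicates the BALB-RAG arrays were higher, by 2.57-fold as fitted (1.36 ± 0.10, adjusted p = 0.000347). Its partner chain Col1a2 read 9.23, 9.39, 9.52 and 9.14 on the BALB-RAG arrays and 7.88, 7.83, 8.42 and 8.51 on the BALB/c arrays (1.16 ± 0.15, adjusted p = 0.00658). Fn1, the adhesive matrix protein fibronectin, differed by 1.01 ± 0.13 (adjusted p = 0.00506), the fibril-associated collagen Col14a1 by 1.11 ± 0.15 (adjusted p = 0.00658) and the gelatinase Mmp2 by 0.93 ± 0.13 (adjusted p = 0.00729).

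Mfap4, a microfibril protein around elastic fibres, was 3.50-fold higher (1.81 ± 0.30, adjusted p = 0.0147, 0.0599 without BALB/c replicate 1). Fbln2, a basement membrane protein, was higher (1.75 ± 0.33, adjusted p = 0.0234) but not with the block (0.0618). The 1 lower member was Mmp3, the matrix protease stromelysin 1, which read 5.54, 5.57, 5.87 and 6.41 on the BALB-RAG arrays and 7.94, 8.27, 8.57 and 8.95 on the BALB/c arrays. It was 6.00-fold lower (−2.59 ± 0.16, adjusted p = 0.000333) and a core gene. The count of higher matrix genes was 9 with the block, 5 without BALB/c replicate 1 and 15 without BALB-RAG replicate 3. After OVA Col1a1 was lower on the BALB-RAG arrays (−1.42 ± 0.25), and the change passed the test (−2.78 ± 0.29, adjusted p = 3.35e-05). The Mmp3 difference was −0.96 ± 0.18 after OVA (change 1.63 ± 0.26, adjusted p = 0.000747).

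Smooth muscle genes moved the same way, with 5 of 18 higher (27.8%, beside 5.95% of all tested genes), none lower and a median of 0.72. Actg2, the enteric smooth muscle actin, read 7.50, 7.13, 6.62 and 7.33 on the BALB-RAG arrays and 5.98, 5.92, 5.78 and 5.51 on the BALB/c arrays (1.35 ± 0.17, adjusted p = 0.00538) and was a core gene. The contractile protein Cnn1 differed by 0.79 ± 0.13 (adjusted p = 0.0147, up to 0.064 without BALB/c replicate 1), while Acta2, Tpm2 and Itga8 lost the call with the block (adjusted p = 0.0721, 0.0691 and 0.103). The list level was 8.18 on BALB-RAG replicate 3 and 8.74 to 8.80 on the others, against 7.82, 7.70, 8.05 and 7.91 on the BALB/c arrays. Myocd, the coactivator that drives smooth and cardiac muscle genes, read 6.77, 6.52, 6.10 and 7.0 on the BALB-RAG arrays and 4.10, 4.83, 4.26 and 4.84 on the BALB/c arrays. It was 4.25-fold higher (2.09 ± 0.25, adjusted p = 0.00397) and a core gene, named after its values were seen. The count of smooth muscle genes was 1 without BALB/c replicate 1 and 8 without BALB-RAG replicate 3.

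Fat and heart muscle transcripts were higher on 3 of the 4 BALB-RAG arrays, which differ from each other in this. Of 16 tested adipose genes 8 were higher and none lower (50%, beside 5.95% of all tested genes), with a median of 1.42. The list level was 8.97, 9.33, 7.26 and 8.82 on BALB-RAG replicates 1 to 4 and 7.24, 7.53, 6.80 and 6.51 on BALB/c replicates 1 to 4, so replicate 3 of BALB-RAG lay within the range of BALB/c. Fabp4, a fatty acid carrier of adipocytes and capillaries, read 12.63, 12.70, 10.22 and 12.15 on the BALB-RAG arrays and 9.46, 10.53, 8.78 and 8.24 on the BALB/c arrays (2.67 ± 0.41, adjusted p = 0.0103, 0.0625 without the pair term). The adipocyte hormone Adipoq read 9.75, 10.36, 7.85 and 9.42 on the BALB-RAG arrays and 6.68, 8.40, 6.55 and 5.67 on the BALB/c arrays (2.52 ± 0.45, adjusted p = 0.0198, up to 0.0605 without BALB/c replicate 1). Ucp1, the heat-producing protein of brown fat, read 7.82, 9.24, 4.49 and 7.52 on the BALB-RAG arrays and was under background on all 4 BALB/c arrays. It was at least 9.63-fold higher (3.88 ± 0.74, adjusted p = 0.0233, and up to 0.0806 without BALB/c replicate 1). Cidea, a lipid droplet protein also typical of brown fat, read 8.68, 10.15, 4.16 and 7.51 on the BALB-RAG arrays and 4.69, 4.22, 3.26 and 3.36 on the BALB/c arrays, and its call (3.74 ± 0.77, adjusted p = 0.0309) ended with the block (0.0527).

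The 2 core genes among these were Slc2a4 and Thrsp. Slc2a4, the insulin-responsive glucose transporter GLUT4 of fat and muscle, read 6.73, 6.57, 6.11 and 6.47 on the BALB-RAG arrays and 5.55, 5.44, 5.25 and 4.99 on the BALB/c arrays (1.16 ± 0.12, adjusted p = 0.00235). Thrsp, a promoter of fat synthesis, was 7.87-fold higher, with 9.99, 10.52, 7.67 and 9.54 on the BALB-RAG arrays and 6.27, 7.10, 6.45 and 6.00 on the BALB/c arrays (2.98 ± 0.44, adjusted p = 0.00991). The count of adipose genes was 3 without BALB/c replicate 1 and 11 without BALB-RAG replicate 3. Named after their values were seen, Acss2, which makes acetyl-CoA from acetate, differed by 1.06 ± 0.14 (adjusted p = 0.00729), and Acacb, which makes malonyl-CoA, by 1.91 ± 0.36 (adjusted p = 0.0232, 0.0638 with the block).

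All 22 tested cardiac muscle genes had differences above 0, with a median of 1.81, but 2 passed the test (9.09%, beside 5.95% of all tested genes). The list level was 10.13, 8.89, 7.24 and 9.83 on BALB-RAG replicates 1 to 4 and 7.76, 7.23, 7.17 and 6.65 on BALB/c replicates 1 to 4, again with BALB-RAG replicate 3 within the range of BALB/c. Myl3, the essential light chain of ventricular myosin, read 11.93, 9.94, 7.0 and 11.13 on the BALB-RAG arrays and 6.25, 4.99, 5.17 and 5.08 on the BALB/c arrays. It had the largest fitted rise of all tested genes, 24.7-fold (4.63 ± 0.86, adjusted p = 0.022, and up to 0.0721 without BALB/c replicate 2). The atrial light chain Myl4 differed by 1.89 ± 0.34 (adjusted p = 0.0201, 0.0504 with the block). Without BALB-RAG replicate 3, 17 members were called, and without BALB-RAG replicate 1 none was. Of the markers fixed for heart, Myh6 read 9.38, 6.43, 5.52 and 9.63 on the BALB-RAG arrays and 6.14, 6.26, 6.38 and 5.29 on the BALB/c arrays. None of the heart markers measured was at background in either group.

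Skeletal muscle transcripts were uneven in both groups and none of 7 was called (median 1.05). The list level was 6.63, 8.39, 5.21 and 6.20 on the BALB-RAG arrays and 7.63, 4.67, 4.78 and 4.46 on the BALB/c arrays, highest on BALB-RAG replicate 2 and BALB/c replicate 1. Of 45 respiratory chain genes 42 had differences above 0 with a median of 0.42, beside −0.02 over all tested genes. Of the 45, 4 passed the test (8.89%, beside 5.95% of all tested genes), Cox5b, Ndufa5, Cox5a and Uqcrc2. None of the 4 was called with the block or without the pair term. The count was 22 without BALB-RAG replicate 3 and 0 without BALB-RAG replicate 1. BALB-RAG replicate 3, low in fat and heart muscle transcripts, was also the lowest BALB-RAG array for smooth muscle, while its matrix level (8.91) was that of replicate 1. The part of fat and heart muscle transcripts in the other differences was not tested.

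**Figure D4:**
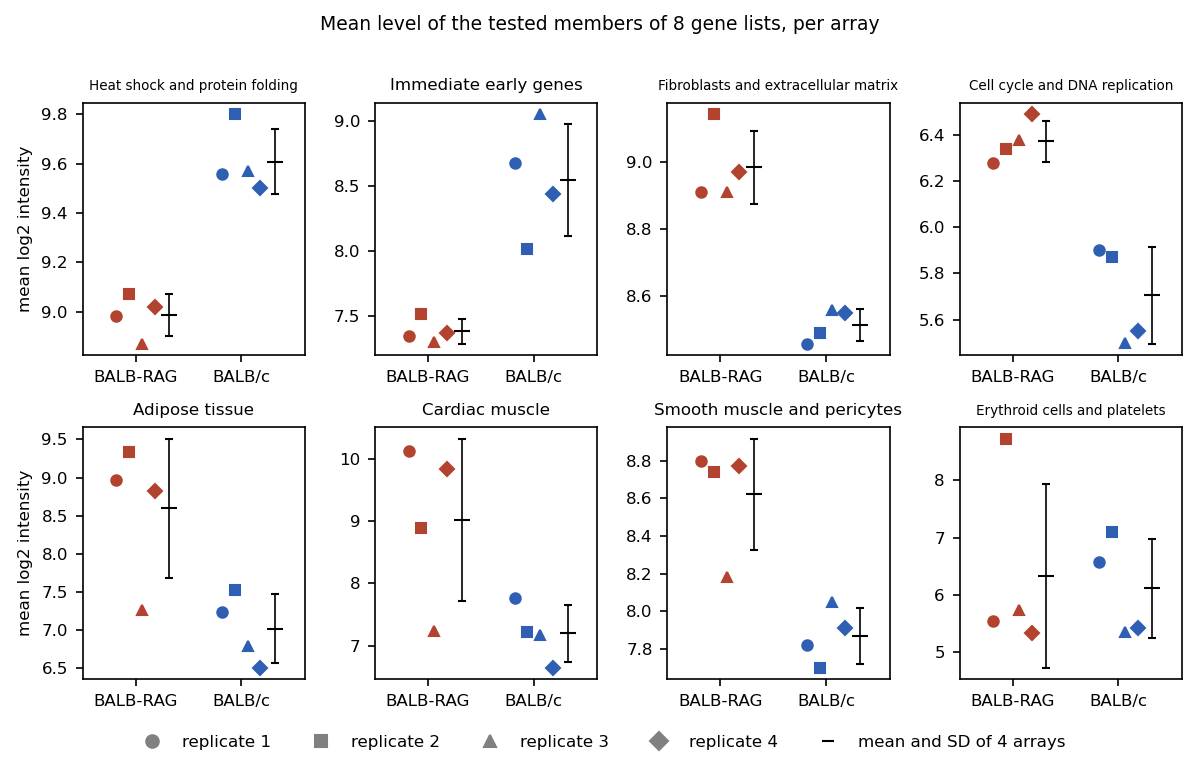
Mean log2 intensity of the tested members of 8 gene lists on each BALB-RAG (red) and BALB/c (blue) array after PBS, with marker shapes for replicates 1 to 4 and the mean and SD of 4 arrays at the side. Heat shock and immediate early levels are lower and matrix and cell cycle levels higher on all 4 BALB-RAG arrays, while the adipose and cardiac levels of BALB-RAG replicate 3 (triangle) lie within the BALB/c range and the erythroid and platelet level of BALB-RAG replicate 2 (square) stands at 8.73.

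Proliferation genes were higher on the BALB-RAG arrays. Of 29 tested cell cycle and DNA replication genes 10 were higher and none lower (34.5%, beside 5.95% of all tested genes). The median was 0.55, and 28 had differences above 0. The list level was 6.28, 6.34, 6.38 and 6.49 on the BALB-RAG arrays and 5.90, 5.87, 5.50 and 5.55 on the BALB/c arrays, without overlap. Rrm2, the subunit of ribonucleotide reductase that limits DNA precursor supply, read 7.28, 7.33, 7.61 and 7.63 on BALB-RAG replicates 1 to 4 and 6.49, 6.32, 5.74 and 5.58 on BALB/c replicates 1 to 4. It was 2.69-fold higher (1.43 ± 0.21, adjusted p = 0.00973) and the 1 core gene of the list. Mki67, a nuclear protein of dividing cells, read 7.20, 8.32, 7.95 and 7.75 on the BALB-RAG arrays and 6.41, 6.45, 6.55 and 6.93 on the BALB/c arrays (1.22 ± 0.23, adjusted p = 0.0228, up to 0.0805 without BALB/c replicate 1). Cyclin A2 (Ccna2) differed by 1.03 ± 0.17 (adjusted p = 0.015, 0.0605 without BALB/c replicate 1) and Prc1, which bundles the spindle midzone, by 1.50 ± 0.26 (adjusted p = 0.0158, 0.064 without BALB/c replicate 1). Birc5 was higher (1.57 ± 0.34, adjusted p = 0.0367) but not with the block (0.085). The count was 6 with the block, 1 without BALB/c replicate 1 and 9 without BALB-RAG replicate 2. After OVA the Rrm2 difference was −2.64 ± 0.30, the opposite sign, and the change passed the test (−4.07 ± 0.38, adjusted p = 1.65e-05).

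Lung epithelium differed little at the threshold used. None of 20 alveolar genes (median −0.13) and none of 18 ciliated cell genes (median −0.25) was called. Of 20 club cell and airway secretory genes 2 were lower (10%, beside 5.95% of all tested genes, median −0.02). Bpifa1, an antimicrobial protein secreted in upper airways, read 10.76, 10.32, 10.05 and 10.67 on the BALB-RAG arrays and 12.75, 12.34, 12.81 and 11.49 on the BALB/c arrays, a 3.73-fold lower level (−1.90 ± 0.29, adjusted p = 0.0103), and was a core gene. Cyp2b10, a drug-metabolising enzyme, was lower (−0.61 ± 0.12, adjusted p = 0.0288, 0.0753 with the block). Of 7 mucous epithelium genes 1 was lower, the trefoil peptide Tff2 (−1.10 ± 0.26, adjusted p = 0.0493, 0.104 with the block), and the goblet cell product Clca1 read 7.21, 2.80, 5.76 and 7.53 on the BALB-RAG arrays and 5.74, 3.87, 5.19 and 3.44 on the BALB/c arrays without a call.

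Of 29 endothelial genes 5 were lower and 1 was higher (20.7%, beside 5.95% of all tested genes, median −0.18). Cldn5 read 11.07, 11.06, 10.79 and 10.73 on BALB-RAG replicates 1 to 4 and 11.85, 11.67, 11.43 and 11.56 on BALB/c replicates 1 to 4, a small difference without overlap (−0.72 ± 0.10, adjusted p = 0.0076), and was a core gene. The capillary diaphragm protein Plvap was lower as well (−0.90 ± 0.17, adjusted p = 0.0241, up to 0.0863 without BALB/c replicate 1), as was Vcam1, an adhesion molecule for leukocytes (−0.68 ± 0.12, adjusted p = 0.0159, 0.054 with the block). Gja4, a connexin of arteries, was higher (0.99 ± 0.18, adjusted p = 0.022, up to 0.0806 without BALB/c replicate 1). Without BALB/c replicate 1 the count of lower genes was 1. Dll1, a Notch ligand, read 6.88, 7.44, 7.55 and 7.57 on the BALB-RAG arrays and 9.19, 9.15, 9.36 and 9.37 on the BALB/c arrays. It was 3.75-fold lower (−1.91 ± 0.14, adjusted p = 0.000347) and a core gene, and Nrarp, a Notch target and inhibitor, was lower too (−0.93 ± 0.16, adjusted p = 0.0165, up to 0.064 without BALB/c replicate 1). Epha1, an ephrin receptor of epithelium, was 3.94-fold higher (1.98 ± 0.26, adjusted p = 0.00592). Dll1, Nrarp and Epha1 were named after their values were seen.

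Myeloid genes had no common call, with 18.8% of the macrophage and monocyte list called, beside 5.95% of all tested genes. Of 16 macrophage and monocyte genes 1 was higher, the haemoglobin scavenger receptor Cd163 (0.82 ± 0.13, adjusted p = 0.013, 0.0605 without BALB/c replicate 1), and 2 were lower, Siglecf and Fabp1 (−0.83 ± 0.16 and −0.70 ± 0.14, adjusted p = 0.0575 and 0.0527 with the block). None of 8 neutrophil genes was called (median −0.45, with −0.89 in replicates 1-2 and 0.17 in replicates 3-4). Siglecf was the 1 call among 3 eosinophil, mast cell and basophil genes. Of 12 genes of alternatively activated macrophages and type 2 effectors, Chia1 was higher and Crlf2 lower (1.23 ± 0.30 and −0.52 ± 0.12), both without a call with the block (adjusted p = 0.0787 and 0.0933). Among 18 complement, coagulation and acute phase genes 1 was called (5.56%, beside 5.95% of all tested genes). It was Procr, the protein C receptor (1.47 ± 0.31, adjusted p = 0.0329, 0.0554 with the block). Of 13 mesothelial genes 1 was called (7.69%), Igfbp6, which was lower (−0.65 ± 0.13, adjusted p = 0.0254, 0.0641 with the block). No call was made among 29 ribosomal protein genes (median −0.06), 7 erythroid and platelet genes (median 0.33) or 3 sex-linked genes. The 3 sex-linked genes, Eif2s3y, Kdm5d and Uty, lie on the Y chromosome. Their mean level was 6.84, 6.99, 7.41 and 7.60 on the BALB-RAG arrays and 7.03, 6.86, 7.15 and 7.37 on the BALB/c arrays. This mean level was over background on every array, and so was Uty.

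**Figure D5:**
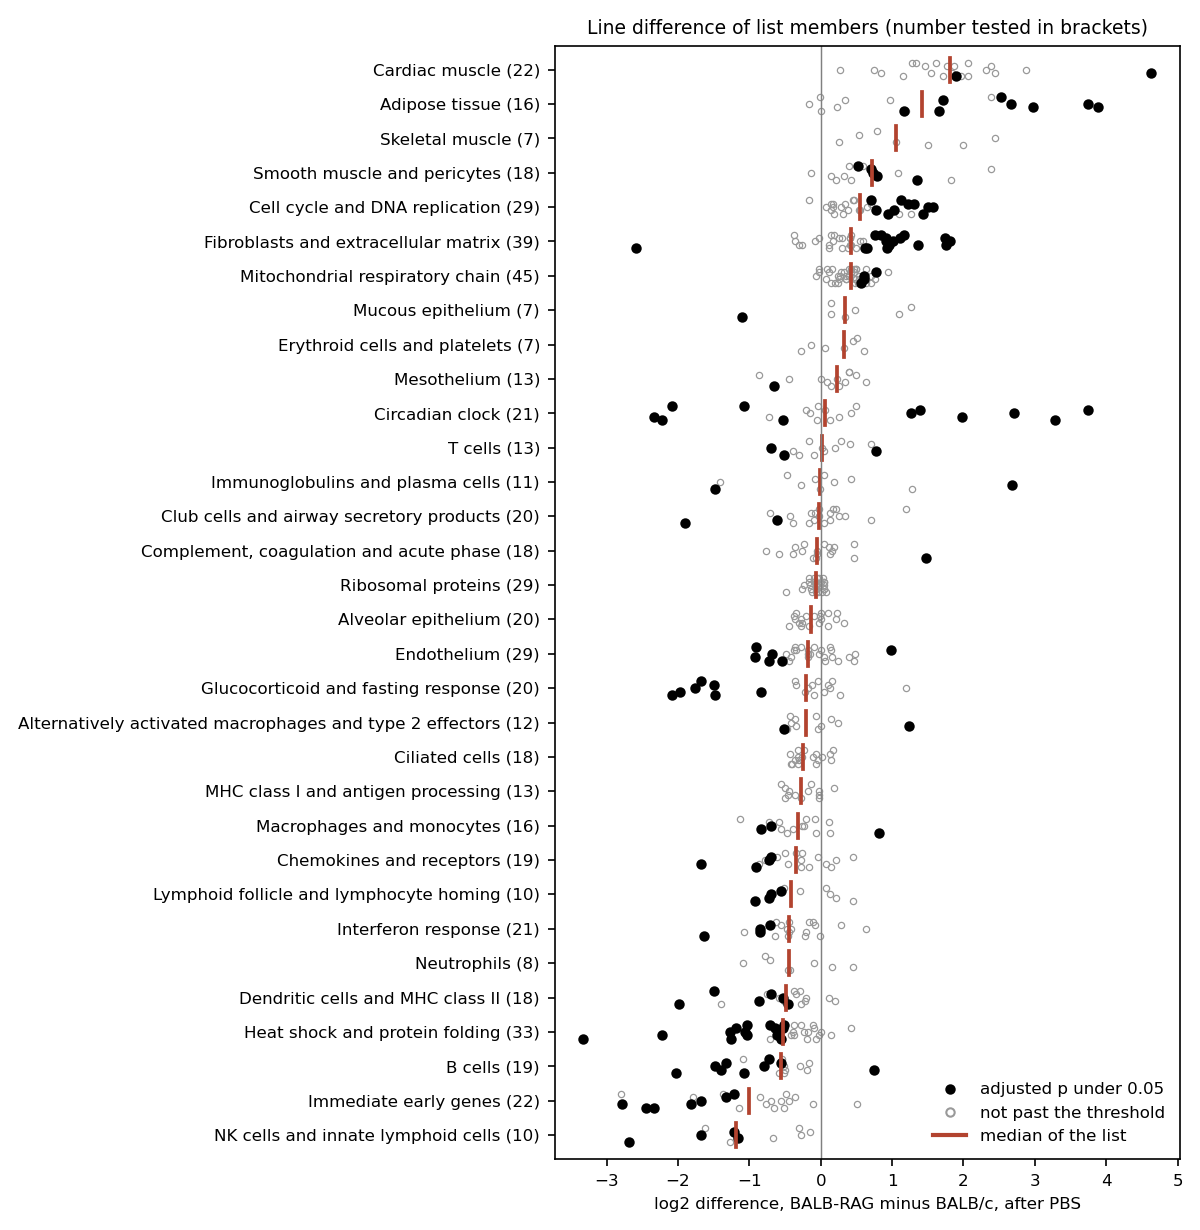
Line difference (log2 of BALB-RAG over BALB/c after PBS) of every tested member of the lists with at least 7 tested members, with the number tested in brackets, called members as black points, others as open circles and the list median as a red bar. NK cell and immediate early members lie mostly to the left of 0, cardiac, adipose and cell cycle members mostly to the right, and clock members on both sides.

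Set beside the same line comparison on the OVA arrays, where 2316 genes were called (33%), 208 of the 418 were called with the same sign, which is 49.8% of the 418 and 8.98% of the 2316, and 50 with the opposite sign. The line difference itself changed with the exposure for 1159 genes (16.5%), 167 of them among the 418. Without BALB-RAG OVA replicate 2, whose T cell, B cell and antibody transcripts stood above the other 3, that number was 1059. Cd3d read 2.50, 7.03, 2.32 and 2.38 on BALB-RAG OVA replicates 1 to 4. On the same arrays Ms4a1 read 2.05, 6.10, 2.38 and 2.94, and Igha read 3.98, 10.97, 3.59 and 5.52. For each of these genes, every BALB-RAG array after PBS read higher than BALB-RAG OVA replicates 1, 3 and 4. Ms4a1 differed by −4.97 ± 0.78 after OVA, and Cd3d by −4.07 ± 0.85. Igha differed by −4.87 ± 1.35 after OVA, the opposite sign to that after PBS. The changes between exposures were −2.94 ± 0.95 for Ms4a1 (adjusted p = 0.0468), −3.77 ± 0.96 for Cd3d (0.0146) and −7.55 ± 1.60 for Igha (0.00517). Without BALB-RAG OVA replicate 2 they were −3.95, −4.81 and −9.18.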

How the data were processed

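Whole lung RNA was extracted with TRIZOL, and 6 µg per sample went into biotin-labelled cRNA for 1 array, per the labels' protocols. Per the submitters' processing notes the authors computed the deposited intensity values with GCRMA, a method of background correction, quantile normalisation and probe summary. No GCRMA version is stated in the sources used here. The deposited intensities are linear (2.32 to 35181), and log2 was taken of them without further scaling. On the 8 arrays the median intensity was 18.18 to 19.84, and 52.33 to 53.45% of probe sets exceeded log2 4. No columns were identical. The number of arrays limits the precision.

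The deposited probe set labels do not belong to the values beside them in 3 stretches, and these were realigned by fixed shifts: 64 rows above, 47 rows below and 16168 rows below. The middle stretch had first been described as 47 rows above. Probe sets of 1 gene correlated there with a median of 0.618 at 47 rows below, 0.027 at 47 rows above and 0.129 as deposited, so the direction was corrected on these data, which no document of the submitters describes. Of 45101 labels 14300 were realigned, and the others were left without a name. Of these, 13146 had 1 gene symbol, 366 several (not used) and 788 none, which named 9866 genes. Absent genes are therefore not analysed here.

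The probe set of highest mean stood for each gene, and 7024 genes over log2 4 on at least 4 of the 8 arrays were tested with limma 3.58.1 in R 4.3.3. A change is "at least" where the lower group was under log2 4 on 4 of 4 arrays, with those set to 4. The replicate numbers deviate together across the lines (correlations 0.432, 0.418, 0.356 and 0.338 for replicates 1 to 4), so the fit with replicate number as a block is printed where it ends a call. This follows the pairs 1-2 and 3-4: with pair means removed the correlations were 0.069 and −0.068. The labels do not call the pairs batches.

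The comparison, the 35 gene lists and the tests were chosen with earlier results of these data known. Genes were named by a rule: the 12 largest rises and falls past the threshold, the smallest p-values of each list (4 members at most), called genes within 60 genes of Rag1, and members of counts of 5 or fewer. Further list members and the genes said so were named after their values were seen. Promoters and gene order came from RefSeq tables of GRCm38.p6. Alternatives varied the pair term, block, arrays, filter, floor, scaling, probe set and variance model.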

Additional observations from a re-analysis of the deposited data

Results flagged for a closer look

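In 348 groups of 4 arrays tested for 1 array far from the other 3 (each named gene and each list level, in each line), 19 were past Dixon's limit, or 5.46%, and chance gives about 1 in 20. Of list levels, chemokines and receptors read 6.91 on BALB-RAG replicate 2 against 6.30 to 6.35 on the other BALB-RAG arrays, and erythroid cells and platelets read 8.73 on that array against 5.34 to 5.73. Smooth muscle and pericytes read 8.18 on BALB-RAG replicate 3 against 8.74 to 8.80 on the others, and skeletal muscle read 7.63 on BALB/c replicate 1 against 4.46 to 4.78.

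Single genes stood apart on 1 BALB-RAG array each: Nr4a1 (8.05) and Cdkn1a (7.72) on replicate 2, Hlf (6.14), Nrarp (7.29) and Acss2 (7.81) on replicate 3, and S1pr1 (9.24) and Dnajb1 (7.95) on replicate 1. On the BALB/c arrays they were Myl3 (6.25) on replicate 1, Klf4 (11.22), Dnaja1 (11.57) and Stip1 (8.97) on replicate 2, Tmem87a (4.58) on replicate 3, and Myl4 (8.64), Tef (8.02) and Mapkbp1 (6.27) on replicate 4.

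For 25 genes the line difference after OVA was set against that after PBS, and for 12 the change passed the limma test over all genes. The change was positive for BC018473 (1.39), Npas2 (2.12), Cry1 (1.67), Clock (0.64), Mmp3 (1.63), Angptl4 (3.32) and Cdkn1a (1.40), and negative for Col1a1 (−2.78), Rrm2 (−4.07), Igha (−7.55), Ms4a1 (−2.94) and Cd3d (−3.77). For Npas2 the OVA difference had opposite signs in replicates 1-2 and 3-4 (−1.33 and 1.13). The 25 genes were chosen after their values were seen. The PBS arrays enter both the difference and the change.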

How the results depend on the processing

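The main counts of 199 higher and 219 lower genes were 72 and 74 without the pair term, 101 and 93 with replicate number as a block, 28 and 32 in replicates 1 and 2 alone, 9 and 18 in replicates 3 and 4 alone, and 304 and 341 in a fit of all 16 arrays with the pair term. Without it the 16 arrays gave 140 lower genes. Over 23925 probe sets, named or not, 415 were higher and 501 lower. With 1 array left out the higher genes numbered 48 to 340 and the lower ones 58 to 229, lowest without BALB/c replicate 1. The 127 called list genes became 64 without the pair term, 68 with the block, 28 and 18 within the pairs, 83 in the 16 arrays without the pair term, and 44 to 162 with 1 array left out. The 87 genes called among those named by rule became 56, 54, 30, 18, 57 and 41 to 79 under the same settings. The interaction count of 0 was 0 to 2 with 1 array left out. The higher share was 40.1% with median centring. Other filters, scalings, the floor, the mean of probe sets, the trend model and the labels at 47 rows above (added after seeing the data) kept the counts within 1.5 times. The labels at 47 rows above name other rows of the same values, so that count is no check of the realignment. Results of single genes in the middle stretch depend on the direction used. Of 139 named results, 53 lost the call with the block and 53 without the pair term. Jchain, not called, reversed to −0.49 in replicates 1 and 2 alone. Causes were not tested. Levels near log2 4 are limited by background.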
